A study of Homo sapiens with 6 samples.

Results

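The genes described here are 54 genes of the G2 phase and of mitosis, read in MSLN-KO and WT cells of NOMO-1, an established cell line from human acute monocytic leukaemia that carries the fusion KMT2A::MLLT3. They were taken from a fixed list of symbols matched to the Ensembl identifiers of the deposited table, and all 54 of the 54 symbols were among its 11363 genes. The MSLN-KO group had 3 libraries of cells with a knockout of MSLN, and the WT group had 3 libraries of parental cells; no treatment is named for either. MSLN encodes mesothelin, a surface glycoprotein held by a lipid anchor. Whether the knockout cells are a clone or a pool, and whether replicates are separate cultures, is not given in the sources used here. Hence p-values describe the spread between these libraries, which could be technical.

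The series was examined first as a whole. MSLN itself stood at 45.7, 46.9 and 45.3 CPM (TMM-scaled read counts relative to library size) in the MSLN-KO libraries, against 153.2, 122.9 and 105.9 CPM in the WT libraries, so the groups did not overlap. In each column the values were whole multiples of 1 step. If that step is worth 1 read, which too few low values are present to settle, the listed genes held between 23665824 and 30804446 reads per library. On that reading the fewest among the 54 genes in any library were 312, for SPC25. All 9 markers chosen for monocytic leukaemia were listed, with a summed level of 7391 to 7851 CPM in MSLN-KO and 16660 to 17382 CPM in WT. LYZ made up most of that sum, with a mean of 6081 CPM in MSLN-KO and 14540 CPM in WT. The 9 did not move one way: 6 fell, MPO 16.3-fold and CD14 2.69-fold among them, FCGR1A and CD33 rose 1.74-fold and 1.32-fold, and PTPRC was not called. Of the markers of other cell types, NKG7 was the 1 listed of 6 for T and NK cells, ITGA2B the 1 of 6 for erythroid and megakaryocytic cells, KRT18 the 1 of 6 for epithelial and mesothelial cells and PECAM1 the 1 of 6 for fibroblasts and endothelium. None of the 4 B cell markers was listed. PECAM1 stood at 379 to 387 CPM in MSLN-KO and 497 to 533 CPM in WT, and NKG7 at 29.3 to 34.8 CPM in MSLN-KO and 37.1 to 40.9 CPM in WT; both fell (adjusted p = 2.1e-05 and 0.012). ITGA2B rose 4.08-fold, with 6.72, 7.42 and 7.07 CPM in MSLN-KO and 2.04, 1.39 and 1.77 CPM in WT (adjusted p = 3.7e-07), without overlap. KRT18 was not called, with means of 8.21 CPM in MSLN-KO and 8.67 CPM in WT. The part of these levels in the results below was not tested.

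Entry into mitosis is driven by CDK1 bound to cyclin A2 or a B-type cyclin. The kinases it activates build the spindle, the kinetochores attach chromosomes to it, and the spindle checkpoint holds the anaphase-promoting complex back until every chromosome is attached. CDC20 then directs that complex to securin and the cyclins, and the central spindle and a contractile ring divide the cell. Many of these genes are transcribed late in the cell cycle through promoters that bind NF-Y at CCAAT boxes and the MuvB complex, with B-MYB and FOXM1, at a short element called the CHR. In bulk RNA, fewer cells in G2 and mitosis and less transcript per such cell cannot be told apart.

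In MSLN-KO cells 28 of the 54 genes (51.9%) fell and 0 rose, at a limma adjusted p under 0.05 over all genes. Of all 11363 genes 45.7% were called, 23.3% lower and 22.4% higher. At an unadjusted p under 0.05, 30 of the 54 were lower and 0 higher. The median change was -0.21 on the log2(CPM + 1) scale, against 0.01 over all genes, and single genes lay between -1.07 (CCNB2) and 0.13 (NDC80). Every MSLN-KO library lay below every WT library for 30 of the 54, against 28.1% of all genes, and above for 2 of them, against 26.6% of all genes. The falls were small: off chromosome 15 none of the called genes fell by more than 1.5-fold in mean CPM.

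The falls were spread unevenly over the roles. All 7 genes of mitotic entry fell, as did 7 of 9 of spindle assembly and 6 of 8 of cytokinesis. Outside chromosome 15 the counts were 6 of 6, 6 of 8 and 4 of 6, beside 21.3% of all genes off that chromosome. Of the 9 kinetochore and centromere genes 1 fell, of the 6 spindle motors 1 and of the 4 genes of the chromosomal passenger complex 1. No gene of these last roles lies on chromosome 15. Their shares were 11.1%, 16.7% and 25%, each from 1 called gene. The last 2 are near the 23.3% of all genes called lower. The proliferation marker MKI67 and the topoisomerase gene TOP2A were not called. These shares depend on how roles were assigned: the kinesin genes KIF14, KIF20A, KIF20B and KIF23 were counted under cytokinesis and not as spindle motors. Differences between roles were not tested.

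**Figure D1:**
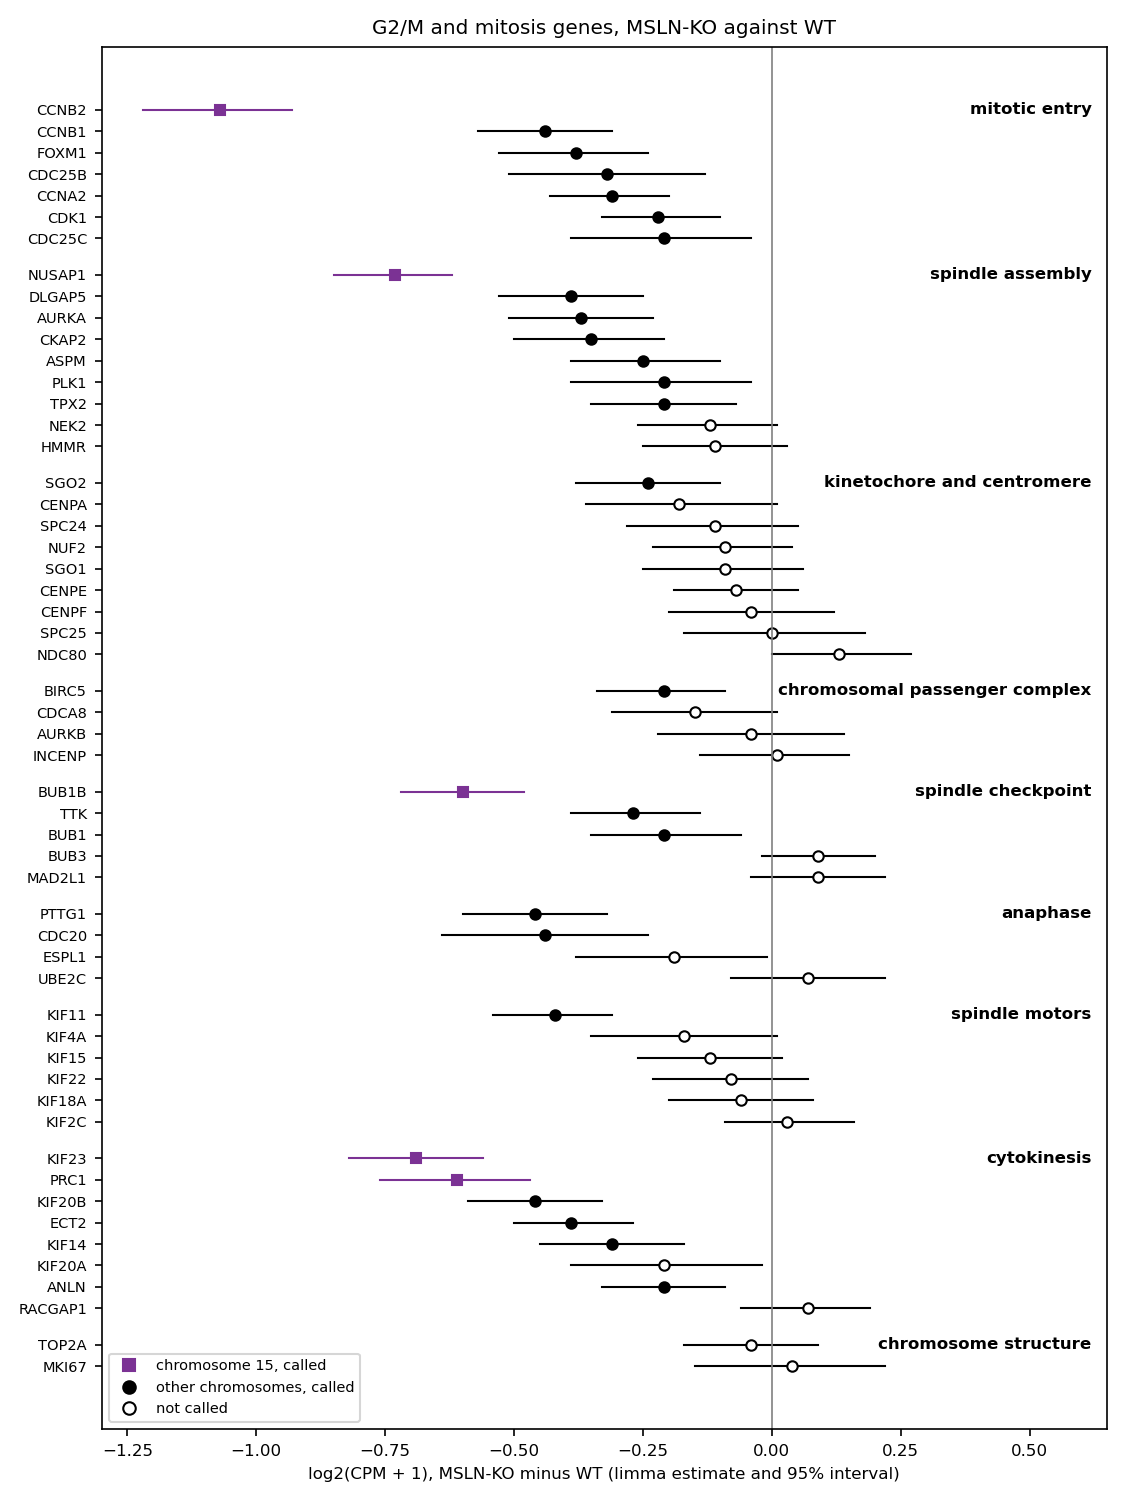
Change of each of the 54 genes, MSLN-KO minus WT, on the log2(CPM + 1) scale, grouped by role, with the limma estimate (symbol) and its 95% interval (line). Filled symbols were called (28 genes, each lower in MSLN-KO), open symbols were not (26 genes), and squares are the 5 genes on chromosome 15.

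Of the 49 genes outside chromosome 15, 23 fell and 0 rose, with a median of -0.19 and a range of -0.46 to 0.13. Among all genes off that chromosome 44.4% were called, 21.3% lower and 23% higher, with a median of 0.02. Every MSLN-KO library lay below every WT library for 25 of the 49, against 26.1% of genes off that chromosome, and above for 2, against 27.4%. In the MSLN-KO libraries 1 to 3 the median of these 49 genes lay at -0.15, -0.14 and -0.23 relative to the WT mean, and in the WT libraries 1 to 3 at -0.07, 0.00 and 0.07. The groups did not overlap, but the WT libraries differed among themselves. WT replicate 3 had the highest WT value in 44 of the 54 genes and WT replicate 1 the lowest in 40, against 29.6% and 33.7% of all genes. MSLN-KO replicate 3 had the lowest value of its group in 32 of 54, against 38.3% of all genes. Without WT replicate 3 or without MSLN-KO replicate 3 the median of the 49 genes was -0.13, with 16 and 19 of them called lower.

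**Figure D2:**
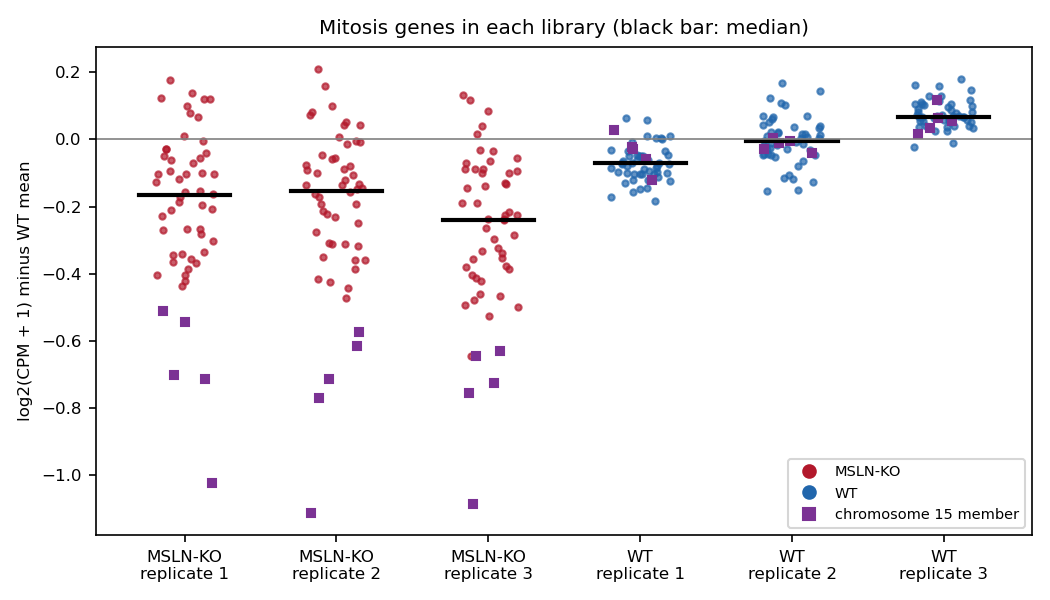
Each point is 1 of the 54 genes in 1 library, as log2(CPM + 1) minus that gene's WT mean, and black bars are medians over the 54 genes. The medians of MSLN-KO replicates 1 to 3 (-0.17, -0.15 and -0.24) lie below those of WT replicates 1 to 3 (-0.07, 0.00 and 0.07). The genes on chromosome 15 (squares) lie among the lowest in MSLN-KO.

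Promoter sequence was available from RefSeq (GRCh38.p14) for 46 of the 54 genes, as 250 bases before and 50 after the first listed start of each gene. TTTGAA, the core of the CHR, was searched on both strands and was present in 30 of the 46 windows (65.2%), against 9.96% of the 8985 windows of genes in the deposited table. CCAAT, on either strand, was present in 36 of 46 (78.3%), against 37.7%. Both were present in 25 of 46 (54.3%), against 4.42%. A window counted for both motifs also where they shared a base. Among the 23 genes with a window that fell, 15 held TTTGAA and 18 held CCAAT, and among the 23 with a window that were not called, 15 held TTTGAA and 18 held CCAAT. Of the 18 that fell outside chromosome 15, 10 held TTTGAA (55.6%) and 14 held CCAAT (77.8%). Presence of these letters thus did not separate the genes that fell from those that were not called. A match is a description of the sequence and not evidence of binding. Only these exact letters were searched, so a window without a match may still hold another form of the element.

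The 150 bases just before the RefSeq start are given for 6 genes, 5 that fell and 1, INCENP, that was not called, so that the shared elements can be read beside the changes below. Capitals mark TTTGAA and CCAAT, or their reverse complements TTCAAA and ATTGG. CCNB2 is chr15:59104996-59105145 (plus strand), PRC1 chr15:90994536-90994685 (minus strand), KIF11 chr10:92592980-92593129 (plus strand), CDC20 chr1:43358831-43358980 (plus strand), CCNB1 chr5:69167000-69167149 (plus strand) and INCENP chr11:62123861-62124010 (plus strand). Gene coordinates elsewhere in the text are from GENCODE 29, whose outermost starts differ from these. The stretch of PRC1 therefore lies within the GENCODE gene, those of CCNB2, CDC20, CCNB1 and INCENP reach into it, and that of KIF11 lies before it.
CCNB2: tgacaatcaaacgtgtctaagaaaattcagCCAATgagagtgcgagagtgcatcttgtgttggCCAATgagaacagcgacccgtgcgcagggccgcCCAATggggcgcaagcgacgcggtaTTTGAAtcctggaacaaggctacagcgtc
PRC1: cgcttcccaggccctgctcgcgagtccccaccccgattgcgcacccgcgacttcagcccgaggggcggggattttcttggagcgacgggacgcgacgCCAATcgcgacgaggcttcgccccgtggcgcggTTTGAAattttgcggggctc
KIF11: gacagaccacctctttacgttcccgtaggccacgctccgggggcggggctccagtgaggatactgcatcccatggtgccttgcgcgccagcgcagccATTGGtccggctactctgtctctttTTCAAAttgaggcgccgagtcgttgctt
CDC20: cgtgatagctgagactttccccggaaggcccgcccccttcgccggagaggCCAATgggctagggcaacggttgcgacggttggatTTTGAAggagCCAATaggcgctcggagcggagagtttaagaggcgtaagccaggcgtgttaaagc
CCNB1: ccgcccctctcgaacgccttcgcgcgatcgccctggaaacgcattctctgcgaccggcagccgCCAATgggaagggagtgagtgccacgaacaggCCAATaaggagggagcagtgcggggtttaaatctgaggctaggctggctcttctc
INCENP: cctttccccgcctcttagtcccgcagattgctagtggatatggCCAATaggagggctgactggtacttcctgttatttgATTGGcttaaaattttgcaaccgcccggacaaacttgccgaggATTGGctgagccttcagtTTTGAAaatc
CCNB2 has 3 CCAAT boxes in this stretch and TTTGAA 29 bases before the start. PRC1, KIF11 and INCENP have TTTGAA at 20, 28 and 10 bases before it, while CCNB1 has a pair of CCAAT boxes and no TTTGAA.

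The genes of mitotic entry fell together. CCNB1, which encodes cyclin B1, the partner of CDK1 in mitosis (GRCh38 chromosome 5, 69167010 to 69178245), stood at 105.1, 104.2 and 98.4 CPM in MSLN-KO and 133.5, 135.2 and 149.8 CPM in WT. Its change was -0.44 (SE 0.06, adjusted p = 6.3e-05). FOXM1, a transcription factor that drives late cell cycle genes, stood at 55.1, 54.5 and 50.3 CPM in MSLN-KO and 66.4, 67.7 and 75.9 CPM in WT (-0.38, SE 0.07, adjusted p = 0.00048). For both genes each MSLN-KO library was below each WT library. An exon overlap with ITFG2 on the opposite strand covers 15.9% of the exon length of FOXM1, and such overlaps cover 9.08% of CCNA2 and 8.78% of CDC25C. Whether the counting used strand is unknown here, so reads of such partners may be mixed.

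The other entry genes fell by less. CCNA2 (cyclin A2) averaged 123.4 ± 3.80 CPM in MSLN-KO and 153.7 ± 6.19 CPM in WT (SD, n = 3 each), and CDK1, the kinase itself, 132.2 ± 2.82 and 153.7 ± 5.69 CPM. Their changes were -0.31 and -0.22. The phosphatase genes CDC25B and CDC25C, which activate CDK1, changed by -0.32 and -0.21. The call of CDC25B was lost without WT replicate 3 (adjusted p = 0.054, with a range of 0.0015 to 0.054 over its alternatives). CDC25C (adjusted p = 0.048) was not called in 7 of 15 alternatives, among them 5 of the 6 that left out a library (each but WT replicate 1), and reached an adjusted p of 0.16 without WT replicate 3.

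**Figure D3:**
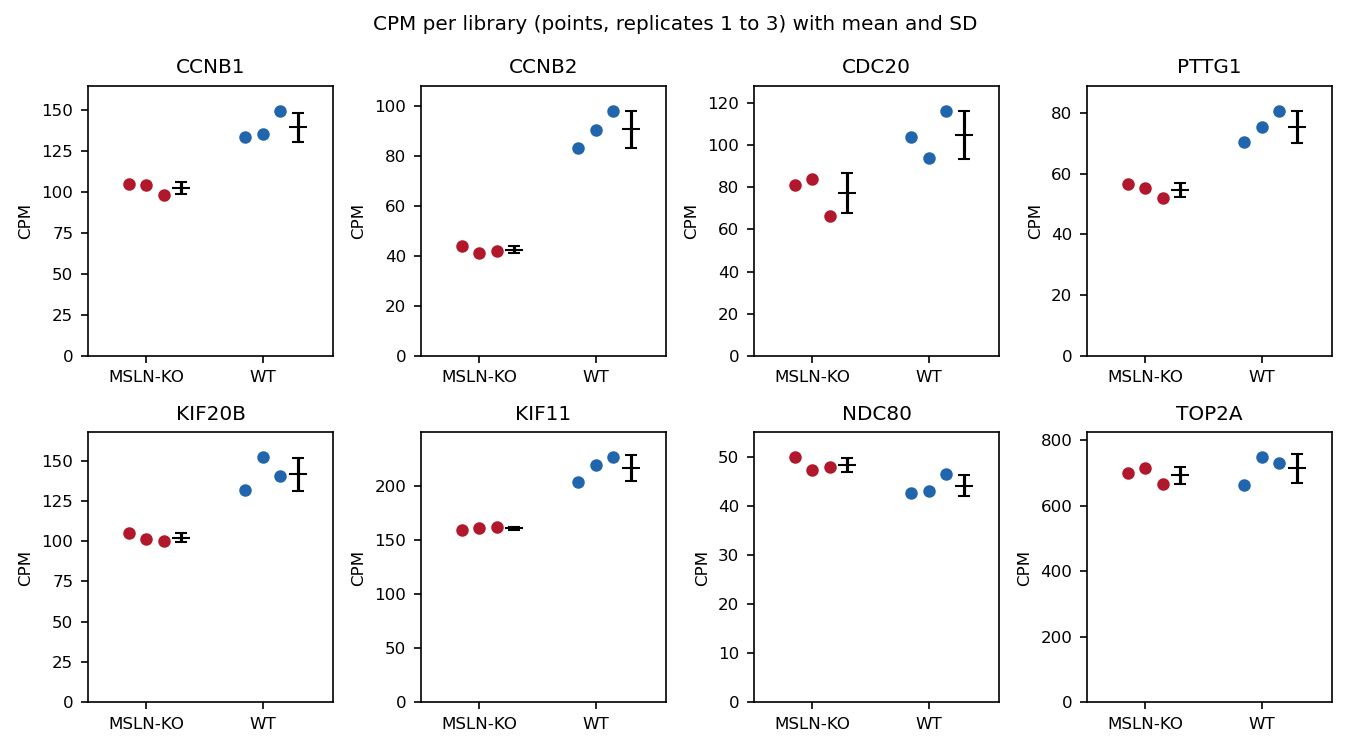
CPM in each library for 8 of the genes, with points for MSLN-KO (left) and WT (right) replicates 1 to 3 and the mean with SD beside them; axes start at 0. CCNB1, CCNB2, CDC20, PTTG1, KIF20B and KIF11 show no overlap between groups, NDC80 lies slightly higher in MSLN-KO without being called, and TOP2A overlaps.

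Spindle assembly genes fell in 7 of 9 cases, NUSAP1 on chromosome 15 among them. DLGAP5, which stabilises kinetochore fibres, stood at 58.7, 57.9 and 54.0 CPM in MSLN-KO, against 69.4, 76.5 and 78.1 CPM in WT (-0.39, SE 0.06, adjusted p = 0.00031). AURKA, the Aurora kinase of the spindle poles, stood at 57.4, 60.6 and 56.0 CPM in MSLN-KO and 71.0, 74.1 and 81.4 CPM in WT (-0.37, SE 0.06, adjusted p = 0.00045). Both sets of libraries were apart. CKAP2 (-0.35), ASPM, a protein of the spindle poles (-0.25), and TPX2, the activator of Aurora A (-0.21), fell as well. TPX2 was not called without MSLN-KO replicate 3 (adjusted p = 0.062) or WT replicate 3 (0.086, the highest of a range from 0.0051). PLK1, a kinase of many mitotic steps, changed by -0.21 (adjusted p = 0.047), with 60.5, 65.4 and 52.8 CPM in MSLN-KO and 69.5, 63.5 and 74.3 CPM in WT. Its groups overlapped and its call was lost in 8 of 15 alternatives, up to an adjusted p of 0.19 without WT replicate 3; the other libraries whose removal ended it were MSLN-KO replicates 1 and 3 and WT replicate 1, with a change of -0.13 without MSLN-KO replicate 3. NEK2, a centrosome kinase, was not called (-0.12, 95% interval -0.26 to 0.01), nor was HMMR (-0.11, -0.25 to 0.03), which was called without WT replicate 1 (-0.18, adjusted p = 0.026, with a range up to 0.69).

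Kinetochore and centromere genes stayed mostly uncalled. SGO2, a shugoshin that guards centromeric cohesion, fell with 58.4, 63.0 and 61.6 CPM in MSLN-KO and 66.3, 74.9 and 75.9 CPM in WT (-0.24, SE 0.07, adjusted p = 0.0095). This call was lost without MSLN-KO replicate 1 (adjusted p = 0.054) or WT replicate 3 (0.051), within a range from 0.0034. NDC80, which binds microtubules in the outer kinetochore, stood at 49.9, 47.3 and 47.8 CPM in MSLN-KO and 42.6, 43.1 and 46.5 CPM in WT. Each MSLN-KO library was above each WT library, yet the change of 0.13 was not called (95% interval -0.00 to 0.27, adjusted p = 0.10). SPC25, of the same 4-subunit complex, stood at 13.7, 13.4 and 13.7 CPM in MSLN-KO and 12.7, 13.6 and 14.4 CPM in WT, with overlapping groups and a change of 0.00 (-0.17 to 0.18). The other subunits NUF2 and SPC24 changed by -0.09 and -0.11. CENPA, the histone variant of centromeres, changed by -0.18 (-0.36 to 0.01), SGO1 by -0.09, the kinetochore motor CENPE by -0.07 and CENPF by -0.04, and none of these was called. A listed gene on the same strand, SLC35F6, covers 6.96% of the exon length of CENPA.

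In the chromosomal passenger complex, which corrects wrong attachments, BIRC5 (survivin) was the 1 called gene. BIRC5 stood at 64.5, 65.4 and 63.2 CPM in MSLN-KO and 75.3, 70.7 and 78.5 CPM in WT (-0.21, SE 0.06, adjusted p = 0.0097), with no overlap. Without WT replicate 3 it was not called (adjusted p = 0.053, the highest of a range from 0.0035). INCENP, the scaffold of the complex, stood at 88.5, 85.5 and 75.1 CPM in MSLN-KO and 82.8, 80.9 and 84.0 CPM in WT. Its groups overlapped, with a change of 0.01 (95% interval -0.14 to 0.15). The kinase AURKB changed by -0.04 (-0.22 to 0.14) and CDCA8 (borealin) by -0.15 (-0.31 to 0.01), neither of them called.

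Checkpoint genes split. TTK, the kinase (MPS1) that starts checkpoint signalling at kinetochores, stood at 67.9, 68.2 and 70.1 CPM in MSLN-KO and 79.4, 83.0 and 86.3 CPM in WT (-0.27, SE 0.06, adjusted p = 0.0018). BUB1, a kinetochore kinase, stood at 113.4, 112.5 and 104.1 CPM in MSLN-KO and 116.6, 128.7 and 136.2 CPM in WT (-0.21, SE 0.07, adjusted p = 0.021). Both were lower in each MSLN-KO library, but BUB1 lost its call without MSLN-KO replicate 3 (adjusted p = 0.066) or WT replicate 3 (0.11, the highest of a range from 0.0069). BUB3, which anchors BUB proteins, stood at 205.1, 197.9 and 199.5 CPM in MSLN-KO and 188.7, 182.6 and 193.0 CPM in WT. MAD2L1, the subunit that captures CDC20, stood at 80.1, 72.3 and 79.7 CPM in MSLN-KO and 71.0, 72.9 and 73.9 CPM in WT. The BUB3 libraries did not overlap and the MAD2L1 libraries did; each changed by 0.09, with adjusted p = 0.15 and 0.24, and neither was called. The remaining checkpoint gene, BUB1B, lies on chromosome 15.

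Of the anaphase genes, PTTG1 and CDC20 fell. PTTG1 (securin, the inhibitor of separase) stood at 56.7, 55.1 and 52.1 CPM in MSLN-KO and 70.3, 75.3 and 80.8 CPM in WT (-0.46, SE 0.07, adjusted p = 9.2e-05). CDC20, the activator of the anaphase-promoting complex (chromosome 1, 43358955 to 43363203), stood at 81.1, 83.8 and 66.3 CPM in MSLN-KO and 103.6, 93.7 and 116.4 CPM in WT (-0.44, SE 0.09, adjusted p = 0.0019). No library of one group reached the other for either gene. PTTG1 has near-identical copies elsewhere in the genome that could share its reads. UBE2C, the ubiquitin-conjugating enzyme of the complex, stood at 60.2, 61.8 and 52.7 CPM in MSLN-KO and 53.4, 55.2 and 57.5 CPM in WT, overlapping, with a change of 0.07 (-0.08 to 0.22). ESPL1 (separase) changed by -0.19 (-0.38 to -0.01, adjusted p = 0.077), with each MSLN-KO library below each WT library.

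Of the kinesin genes counted under cytokinesis, KIF14, KIF20B and KIF23 fell and KIF20A was not called. Among the 6 genes counted as spindle motors, KIF11 was the 1 that fell. This kinesin pushes the spindle poles apart (chromosome 10, 92593286 to 92655395), and it stood at 159.4, 160.7 and 162.2 CPM in MSLN-KO, against 203.3, 219.4 and 226.3 CPM in WT. The groups were apart, with a change of -0.42 (SE 0.05, adjusted p = 3.9e-05). KIF2C, a microtubule depolymerase at centromeres, stood at 107.1, 107.4 and 97.5 CPM in MSLN-KO and 101.5, 97.7 and 105.1 CPM in WT, overlapping (0.03, -0.09 to 0.16). The chromosome-arm kinesins KIF4A and KIF22 changed by -0.17 (-0.35 to 0.01) and -0.08 (-0.23 to 0.07). KIF15, which can stand in for KIF11, changed by -0.12 and KIF18A, which limits chromosome movements, by -0.06. None of these 5 was called, but KIF15 passed without WT replicate 1 (-0.18, adjusted p = 0.038, with a range up to 0.37) and KIF22 without WT replicate 2 (-0.16, adjusted p = 0.035, with a range up to 0.76). KIF4A has a retrogene copy, KIF4B, that could share its reads.

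Cytokinesis genes fell outside chromosome 15 in 4 of 6 cases. KIF20B, a kinesin needed to finish abscission, stood at 105.2, 101.5 and 100.1 CPM in MSLN-KO and 131.9, 152.2 and 140.2 CPM in WT (-0.46, SE 0.06, adjusted p = 4.7e-05). ECT2, which activates RhoA at the future furrow, stood at 67.2, 66.3 and 65.5 CPM in MSLN-KO and 84.0, 87.6 and 89.6 CPM in WT (-0.39, SE 0.05, adjusted p = 8.2e-05). Neither gene's groups overlapped. KIF14 fell by 0.31 on the log2 scale and ANLN (anillin, a scaffold of the contractile ring) by 0.21. KIF20A, which carries the passenger complex to the central spindle, had the largest change among the genes that were not called: 68.9, 72.8 and 58.7 CPM in MSLN-KO and 71.8, 74.5 and 85.2 CPM in WT, overlapping, with a change of -0.21 (-0.39 to -0.02, adjusted p = 0.061). It was called without MSLN-KO replicate 2 (-0.27, adjusted p = 0.028) and without WT replicate 1 (-0.26, 0.047), within a range up to 0.26. RACGAP1, the partner of KIF23 in centralspindlin, stood at 86.8, 82.1 and 82.0 CPM in MSLN-KO and 77.1, 78.5 and 83.8 CPM in WT, overlapping (0.07, -0.06 to 0.19).

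The general markers of cycling cells did not follow the falls. TOP2A, the topoisomerase that untangles chromosomes, averaged 694.3 ± 26.2 CPM in MSLN-KO and 714.8 ± 44.7 CPM in WT (-0.04, 95% interval -0.17 to 0.09). MKI67, the Ki-67 gene, whose protein coats mitotic chromosomes, stood at 334.4, 388.2 and 314.5 CPM in MSLN-KO and 303.7, 377.2 and 330.4 CPM in WT. The ranges overlapped almost wholly, with a change of 0.04 (-0.15 to 0.22). The 95% interval of each of the 26 genes that were not called lay above -0.50. All 26 lie off chromosome 15, where the lowest change of any of the 49 genes was -0.46. This bound therefore does not set them apart from the called genes there. The smallest called fall, -0.21, lay within the intervals of KIF20A (-0.39 to -0.02), ESPL1 (-0.38 to -0.01) and CENPA (-0.36 to 0.01), among others. It lay outside those of TOP2A and MKI67, among others.

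The 5 genes on chromosome 15 are set apart because most genes of that chromosome were lower in MSLN-KO. Of its 371 listed genes 86.5% were called, 83% lower and 3.5% higher, with a median change of -0.57. All 5 fell, with changes between -1.07 and -0.60. In all 5 every MSLN-KO library was below every WT library, as in 85.4% of the genes of the chromosome, while 3.77% of those lay above. CCNB2 (cyclin B2, 59105078 to 59125045) stood at 44.0, 41.2 and 42.1 CPM in MSLN-KO and 83.0, 90.5 and 98.1 CPM in WT. NUSAP1, which bundles spindle microtubules (41332694 to 41381050), stood at 97.8, 93.1 and 96.1 CPM in MSLN-KO and 156.5, 156.5 and 165.9 CPM in WT. KIF23, the motor of centralspindlin (69414246 to 69448427), stood at 41.4, 41.4 and 43.5 CPM in MSLN-KO and 65.8, 68.3 and 71.6 CPM in WT. In these 3 the lowest WT value was over 1.5 times the highest MSLN-KO value. BUB1B (BUBR1, an inhibitor of the anaphase-promoting complex, 40161023 to 40221136) stood at 56.1, 53.3 and 52.8 CPM in MSLN-KO and 80.9, 81.5 and 84.2 CPM in WT. PRC1, which bundles the antiparallel microtubules of the central spindle (90966038 to 90995629), stood at 72.8, 69.6 and 61.3 CPM in MSLN-KO and 106.0, 101.0 and 105.1 CPM in WT.

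Set against the median of the listed genes within 5 Mb on each side, the 5 genes differed from each other. CCNB2 had changed by -1.07 (SE 0.07, adjusted p = 5.4e-08), with a regional median of -0.57, and was still lower by 0.50 after that median was subtracted (adjusted p = 5.7e-05). NUSAP1 (-0.73) and KIF23 (-0.69) each kept a change of -0.16 beyond regional medians of -0.57 and -0.53 (adjusted p = 0.025 and 0.038). BUB1B (-0.60) and PRC1 (-0.61) were no longer called, at -0.07 (adjusted p = 0.32) and 0.01 (adjusted p = 0.88), beside regional medians of -0.53 and -0.63. The median was subtracted as a fixed value, so p-values after subtraction leave out the spread among the neighbouring genes. Whether a gene departs from its region was therefore not tested. Reads of PRC1 are also uncertain because another listed gene on the same strand, ENSG00000284946, shares 57.6% of its exon length; that gene changed by -0.59. With the regional median subtracted for every gene, 27 of the 54 were lower and 0 higher, where 22.5% of all genes were lower and 21.3% higher. SPC24 (-0.23), ESPL1 (-0.24) and KIF15 (-0.18) were then called lower, and PLK1 (adjusted p = 0.059, with a range of 0.018 to 0.19) and ANLN (0.053, with a range from 0.0052) were not.

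**Figure D4:**
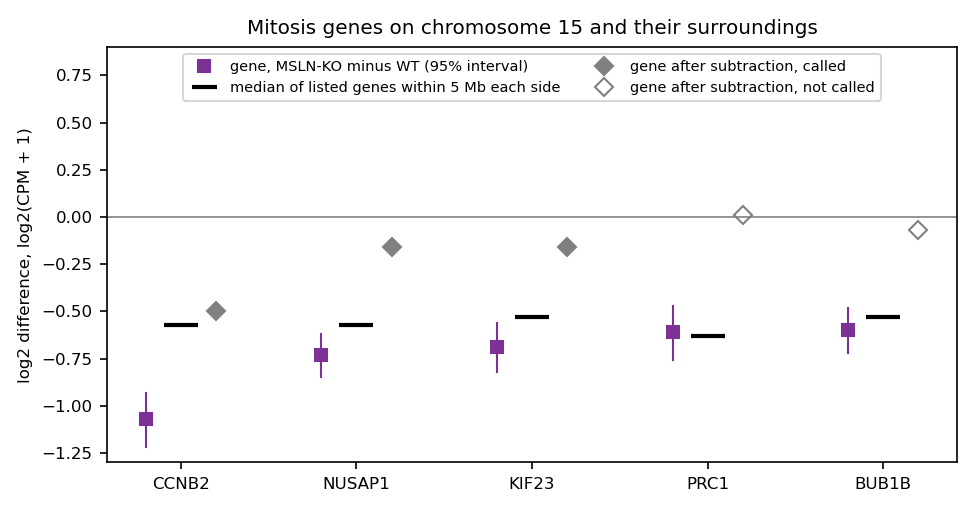
For the 5 genes on chromosome 15, the change between MSLN-KO and WT (squares with 95% interval), the median change of listed genes within 5 Mb on each side (bars), and the change after that median is subtracted (diamonds, filled where called), on the log2(CPM + 1) scale. CCNB2 stays furthest below 0 after subtraction (-0.50), and PRC1 comes to 0.01.

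Per kilobase of exon the levels of the genes spanned a wide range. TOP2A led with 107.9 CPM per kb in MSLN-KO and 111.0 in WT, followed in WT by NUSAP1 (33.3 in MSLN-KO and 55.5 in WT), CCNA2 (44.1 and 54.9), CCNB1 (40.1 and 54.5) and CDC20 (37.8 and 51.3). The lowest were CDC25C (4.04 in MSLN-KO and 4.73 in WT), ESPL1 (5.30 and 6.07) and SGO1 (5.95 and 6.37). Across the 54 genes Spearman's rho between the WT level in CPM and the change was -0.20, a description over genes that share the same 6 libraries.

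Further genes of the same processes were read from 8 lists of 137 genes, all listed in the table. Of these, 45 fell (32.8%) and 14 rose, with a median of -0.08, beside 23.3% lower, 22.4% higher and a median of 0.01 over all genes. Without WT replicate 3 the count of falls was 28. Outside chromosome 15 39 of 131 fell (29.8%), beside 21.3% of all genes off that chromosome, and all 6 of those on it fell, beside 83% of its genes.

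Among the further lists mitotic entry held the highest share of falls, 8 of 11 (72.7%), with 0 rises (also 0 at an unadjusted p under 0.05). Of all genes 23.3% were lower and 22.4% higher. Off chromosome 15 the count was 7 of 10, beside 21.3% of all genes off that chromosome. The further lists were chosen with earlier results of these data known and read in the same libraries. They are therefore no independent check of the mitotic entry genes described above. CDC25A, a phosphatase of CDK1 and CDK2, fell 1.26-fold, and ARPP19, an inhibitor of the phosphatase PP2A on chromosome 15, fell 1.33-fold. Cytokinesis genes fell in 3 of 9 cases (33.3%, not far from the 23.3% of all genes), CEP55 of the midbody 1.35-fold and SHCBP1 1.18-fold. The call of SHCBP1 was lost without MSLN-KO replicate 2 (adjusted p = 0.071, the highest of a range from 0.013). Further checkpoint genes fell in 3 of 6 cases, and in 2 of 5 off chromosome 15, beside 21.3% of all genes off it. Among them were ZWILCH of chromosome 15 (1.67-fold) and TRIP13, the ATPase that disassembles checkpoint complexes (1.38-fold). MAD1L1, the anchor of MAD2, rose 1.19-fold. MAD1L1 was not called without MSLN-KO replicate 1 (adjusted p = 0.052) or 2 (0.053), within a range from 0.0058.

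The structural lists had shares of falls nearer to the 23.3% of all genes than mitotic entry had. Of 31 further kinetochore genes 9 fell and 3 rose. Off chromosome 15, 7 of 29 fell (24.1%), near the 21.3% of all genes off that chromosome. OIP5 and KNL1, both on chromosome 15, fell 1.80-fold and 1.54-fold, and the inner kinetochore genes CENPH (1.37-fold) and CENPT (1.40-fold) rose. CENPI had the largest fall of this list off that chromosome (1.48-fold). Of 25 spindle and centrosome genes 9 fell and 5 rose. Off chromosome 15, 7 of 23 fell (30.4%) and 5 rose, beside 21.3% lower and 23% higher among all genes off that chromosome. TUBGCP4 and HAUS2, again on chromosome 15, fell 1.55-fold and 1.45-fold, and the augmin subunits HAUS6 (1.28-fold) and HAUS4 (1.26-fold) rose. PLK4 had the largest fall of this list off that chromosome (1.44-fold). Condensin and cohesin had 5 falls (26.3%, near the share of all genes) and 0 rises in 19 genes, with 1 higher at an unadjusted p under 0.05. ESCO2, a cohesin acetyltransferase, fell 1.27-fold, and CDCA5 (sororin) fell 1.16-fold, a call lost without MSLN-KO replicate 3 (adjusted p = 0.061) or WT replicate 3 (0.076, the highest of a range from 0.016). The anaphase-promoting complex had 3 falls, with CDC26 (1.43-fold) and ANAPC5 (1.21-fold), and 1 rise, ANAPC16 (1.30-fold), among 17. With the regional median subtracted, KNL1, OIP5, ZWILCH, TUBGCP4, HAUS2, ARPP19 and HAUS6 were not called. CENPI (-0.43) and PLK4 (-0.47) were still called lower in that setting.

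Among 19 regulators of mitotic genes 5 fell (26.3%) and 4 rose, near the 23.3% lower and 22.4% higher over all genes. MYBL2 (B-MYB) stood at 95.2, 92.8 and 76.3 CPM in MSLN-KO and 116.5, 96.0 and 125.1 CPM in WT (-0.35, SE 0.10, adjusted p = 0.011), with the lowest WT library just above the highest MSLN-KO library. It was not called without WT replicate 3 (adjusted p = 0.067, the highest of a range from 0.0011). LIN54, the DNA-binding subunit of MuvB, fell 1.29-fold, as did E2F8, an atypical E2F repressor. LIN37, another MuvB subunit, rose 1.43-fold, but not past the threshold with the regional median subtracted (adjusted p = 0.11, with a range from 0.0013). CDKN1A, which encodes the CDK inhibitor p21, stood at 45.3, 46.7 and 41.2 CPM in MSLN-KO and 47.6, 49.8 and 58.7 CPM in WT. It was lower in each MSLN-KO library (-0.22, adjusted p = 0.040), a call lost in 7 of 15 alternatives, among them the removal of MSLN-KO replicate 1 (adjusted p = 0.076), MSLN-KO replicate 3 (0.13) or WT replicate 3 (0.20, the highest).

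**Figure D5:**
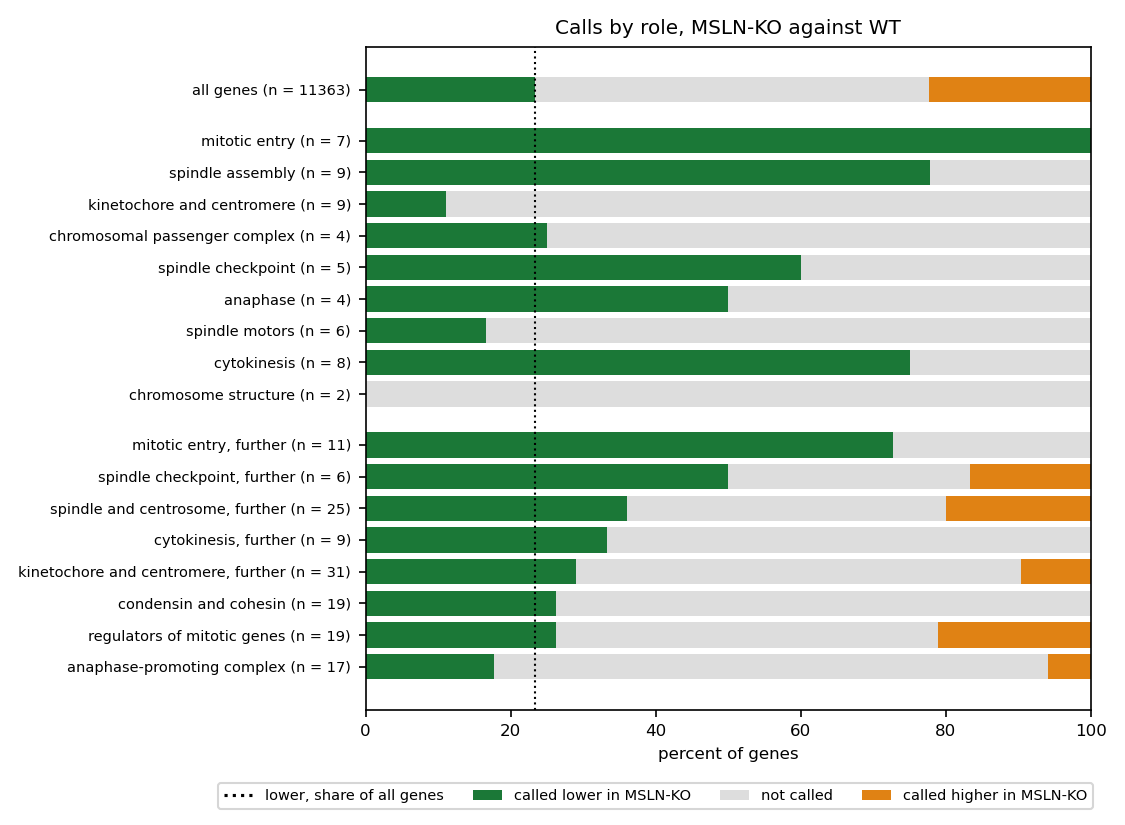
Share of genes called lower, not called and called higher in MSLN-KO, for all 11363 genes, for the 54 genes by role and for the 8 further lists. The dotted line marks the 23.3% of all genes that were called lower; the roles of mitotic entry, spindle assembly and cytokinesis lie well above it. The 9 kinetochore and centromere genes (11.1%) and the 6 spindle motors (16.7%, near it) among the 54 lie below it, each with 1 called gene. The further kinetochore list (9 of 31) lies above it. Bars include genes on chromosome 15. Without them the further kinetochore share was 24.1% (7 of 29), near the 21.3% of all genes off that chromosome.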

How the data were processed

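RNA of 3 MSLN-KO and 3 WT libraries of NOMO-1 was sequenced from stranded, ribosomal-RNA-depleted total RNA, per the labels' protocols. The values the authors deposited are CPM after TMM scaling, 1 column per library, with STAR, featureCounts and edgeR on GRCh38/hg38 named in the submitters' processing notes. Tool versions, annotation and strand setting were not given in the sources used here. In each column 100% of values were whole multiples of 1 step within 0.01, and depth was read from that step on the assumption that it is worth 1 read. All listed genes reached at least 4.9 CPM in 3 libraries, so genes low in both groups are not covered.

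Symbols were matched for 11354 of 11363 identifiers, and GENCODE 29 (GRCh38) gave 1-based coordinates for 11314. MSLN-KO was compared with WT by limma 3.58.1 in R 4.3.3 (lmFit, eBayes with intensity trend) on log2(CPM + 1) over 6 libraries without covariates. Genes were called at a two-sided Benjamini-Hochberg adjusted p under 0.05 over all genes. A minimum mean of 0.5 CPM removed none. Log2 changes are on that scale; folds are ratios of mean CPM. The fit was tested on simulated data.

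The members and lists were chosen with earlier results of these data known. Values per library are given by a fixed rule: MSLN, members on chromosome 15, the 2 largest called changes per role elsewhere, members above 0 and the largest change not called. Up to 2 called genes per direction are named for each further list, with MYBL2, CDKN1A, CENPI and PLK4 added. One gene that this rule names among the regulators is not reported here.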

Additional observations from a re-analysis of the deposited data

How the results depend on the processing

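Of 15 alternatives run, 18 of the 28 calls held in each one that kept the gene, 15 of them off chromosome 15. The count of the 54 genes called lower was 28 with a pseudocount of 0.5 or 5, a minimum mean of 5 CPM or median-of-ratios scaling, 26 with equal column totals, 27 without the variance trend, 23 of 49 without the genes of chromosome 15 and 27 with the regional median subtracted, and the count called higher was 0 throughout. Leaving out 1 library gave 21 (without WT replicate 3) to 30 (without WT replicate 1) lower. The further genes called lower numbered 28 to 45 and the median of the 49 genes off chromosome 15 was -0.21 to -0.13 when 1 library was left out, so the size rests in part on replicate 3 of each group. With the regional median subtracted, PRC1 (0.01), ARPP19 (0.12) and HAUS2 (0.06) turned above 0 without being called, by the construction of that setting. The labels do not say that replicate numbers pair the samples. Deviations of same-numbered libraries correlated at 0.19, -0.17 and -0.09, within the -0.25 to 0.30 of unlike-numbered ones, which cannot settle pairing. With the replicate block 26 of the 54 were lower, without CDC25C and PLK1. The planned edgeR and DESeq2 tests were not run: the deposited values are CPM, and too few of them are low to establish that 1 step is 1 read. Counting error limits the lowest genes most, such as, among the 54, SPC25 with 312 reads in 1 library if 1 step is 1 read. Some further genes and markers were lower, such as LIN37 (4.53 CPM) and ITGA2B (1.39 CPM) in WT replicate 2.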
